A study of Mus musculus with 6 samples.

Results

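Transcripts of uterine gland and luminal secretory genes were described in RNA-sequencing libraries of mouse uterus taken around embryo implantation sites on day 13 of gestation. The genes were Foxa2, Lif, Cxcl15, Prss28, Prss29, Spink1, Wfdc2 and Prap1, which is 8 of the 24964 gene symbols in the deposited table. They were chosen by symbol with their values in these 6 libraries already known, so their levels and their differences between groups are descriptions and carry no test. The series held 3 libraries labelled as deficient in PGR, the progesterone receptor, in the myometrium (the smooth muscle wall of the uterus), and 3 control libraries, here called deficient 1 to 3 and control 1 to 3. The labels give the control mice no other treatment or allele. The sources used here do not give the alleles, the Cre driver, the strain or the age of the mice. The labels do not say that each library came from its own animal, so SDs and p-values reflect library-to-library spread, part of which may be technical.

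Uterine glands are epithelial tubes that open into the uterine lumen and secrete proteins that the implanting embryo and the surrounding stroma need. In the mouse, the transcription factor FOXA2 is made in the glandular epithelium, and mice without it in the uterus lack functional glands. The glands also secrete leukaemia inhibitory factor (LIF), a cytokine without which mouse embryos do not implant, and the implantation serine proteinases encoded by Prss28 and Prss29. Progesterone acting through PGR is among the signals that set when gland secretion takes place.

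Levels are FPKM, fragments per length of gene and depth of library, so levels of different genes can be compared per length. Differences are mean log2(FPKM + 1) of the deficient libraries minus that of the control libraries, with the standard error (SE) from limma fitted to all 12500 genes whose mean was at least 1 FPKM. Lif, Prss28, Prss29, Wfdc2 and Prap1 passed that filter, and Foxa2, Cxcl15 and Spink1 lay below it. Prss28 and Prss29 passed it with means over the 6 libraries of 18.0 and 53.2 FPKM, to which deficient 3 alone gave most. Summed FPKM ran from 357126 to 372372 in the deficient libraries and from 372412 to 377091 in the control libraries.

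The targeted gene, Pgr, did not fall with the label. Its level was 11.3, 12.4 and 7.73 FPKM in deficient 1, 2 and 3, against 9.72, 8.33 and 12.1 FPKM in control 1, 2 and 3. The difference was 0.05 ± 0.19 (SE), with a limma adjusted p of 0.91 over all genes, and the groups overlapped. The sources used here do not name the exons that the deficiency removes, and whole uterus holds other cells that express Pgr. Directions below are therefore those of the libraries labelled deficient.

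Deficient 3 stood apart from the other libraries of its group. Among the genes tested, 32 were at least 4-fold higher in it than in both deficient 1 and deficient 2, and 63 were at least 4-fold lower. The same counts were 2 and 2 for deficient 1, 8 and 3 for deficient 2, 0 and 13 for control 1, 8 and 5 for control 2, and 8 and 21 for control 3. A gene can reach the filter through the very library in which it is high, which can add to the counts of higher genes. Values of the members are given below with and without deficient 3 wherever it decides them.

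FOXA2 drives gland formation and the expression of gland products in the mouse uterus. Foxa2 (chromosome 2, 148042877 to 148046969, minus strand, GRCm38) was at 0.298, 0.264 and 0.206 FPKM in deficient 1, 2 and 3. It was at 0.262, 0.241 and 0.378 FPKM in control 1, 2 and 3. The means were 0.256 ± 0.047 FPKM in the deficient libraries and 0.294 ± 0.074 FPKM in the control libraries (SD, n = 3 each). The lowest value was in deficient 3 and the highest in control 3, and the groups overlapped. At the library size behind the table, these values correspond to about 26, 23 and 18 reads in the deficient libraries and about 23, 21 and 33 in the control libraries. Foxa2 was below the filter, and its groups were not compared by a test.

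LIF is the gland cytokine that acts on luminal epithelium and stroma through LIFR and IL6ST. Lif (chromosome 11, 4257557 to 4272514, plus strand) was at 2.19, 2.61 and 1.52 FPKM in deficient 1, 2 and 3. It was at 1.91, 2.13 and 1.61 FPKM in control 1, 2 and 3. The means were 2.10 ± 0.55 and 1.88 ± 0.26 FPKM in the deficient and control libraries (SD, n = 3 each), and the difference was 0.10 ± 0.15 (SE). The highest and the lowest of the 6 values both belonged to the deficient group, and the third library was the lowest in each group. Without deficient 2 the difference was -0.02.

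CXCL15 is a mouse chemokine of the neutrophil-attracting ELR family, known from lung epithelium and from uterine glands of young mice. Cxcl15 (chromosome 5, 90794534 to 90803067, plus strand) was at 0.077, 0.013 and 0.025 FPKM in deficient 1, 2 and 3. It was at 0.013 FPKM in control 1 and listed at 0 in control 2 and control 3. The values were whole multiples of 0.0128 FPKM, within 0.0483 of a step, which gives 6, 1 and 2 reads in the deficient libraries and 1, 0 and 0 in the control libraries. Only deficient 1 lay above 0.0384 FPKM, the level of 3 reads, and the control libraries lay under it, so no fold is given. An annotated small RNA gene overlaps Cxcl15 on the other strand.

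Prss28 and Prss29 encode the secreted trypsin-like proteinases ISP1 and ISP2 of the implantation period. They lie side by side on chromosome 17, at 25308646 to 25311876 and 25318654 to 25322684, both on the plus strand and 6777 bases apart. The 250 bases before the RefSeq start of each gene (GRCm38.p6) are shown because the pair moved together across the libraries, and those of Prap1 because it was the most abundant transcript of the table. Capitals mark matches, on either strand, to TATAAA, to GGTCA (the core of an oestrogen receptor element, read TGACC on the opposite strand) and to AGAACA (the core hexamer bound by the progesterone and glucocorticoid receptors, read TGTTCT on the opposite strand).
Prss28, chr17:25308396-25308645, plus strand: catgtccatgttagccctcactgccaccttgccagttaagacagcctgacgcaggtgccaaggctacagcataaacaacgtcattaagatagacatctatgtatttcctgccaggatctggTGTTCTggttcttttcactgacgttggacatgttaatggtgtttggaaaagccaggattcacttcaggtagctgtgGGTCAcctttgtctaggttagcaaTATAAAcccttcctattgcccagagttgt
Prss29, chr17:25318404-25318653, plus strand: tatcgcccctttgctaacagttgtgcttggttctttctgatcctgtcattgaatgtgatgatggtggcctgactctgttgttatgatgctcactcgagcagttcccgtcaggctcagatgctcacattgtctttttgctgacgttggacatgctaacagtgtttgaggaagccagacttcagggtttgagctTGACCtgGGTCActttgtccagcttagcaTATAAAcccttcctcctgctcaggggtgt
Prap1, chr7:140093146-140093395, plus strand: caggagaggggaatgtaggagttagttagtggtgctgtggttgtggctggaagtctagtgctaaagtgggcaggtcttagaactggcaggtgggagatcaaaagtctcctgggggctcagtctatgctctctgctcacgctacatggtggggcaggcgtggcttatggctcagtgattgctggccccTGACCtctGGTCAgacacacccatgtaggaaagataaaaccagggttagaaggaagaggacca

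The Prss28 and Prss29 windows were 75.5% identical over 229 aligned bases. Each held TATAAA 29 bases before its start. GGTCA lay 53 bases before the start of Prss28, at 51 and, on the opposite strand, 58 bases before that of Prss29, and at 55 and, on the opposite strand, 63 bases before that of Prap1. AGAACA matched the window of Prss28 alone of these, 129 bases before its start. Of 32851 promoter windows of this length, 12.4% held TATAAA, 35.2% GGTCA and 16.1% AGAACA. The forkhead sequences TGTTTAC and TGTTTGC, held by 3.17% and 4.30% of all windows, matched no window of the 7 members in the RefSeq table. Other forms of the forkhead motif were not searched. A match is a run of letters in this window and not a binding site shown by these data.

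Prss28 was at 0.890, 1.53 and 86.6 FPKM in deficient 1, 2 and 3. It was at 4.18, 7.33 and 7.46 FPKM in control 1, 2 and 3. Deficient 3 was thus far above every other library, and deficient 1 and 2 lay below all 3 control libraries. The means were 29.7 ± 49.3 FPKM in the deficient libraries and 6.33 ± 1.86 FPKM in the control libraries (SD, n = 3 each), and the difference was 0.07 ± 1.42 (SE). Its sign turned when the libraries were rescaled to a common sum, where it was -0.09.

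Prss29 was at 6.81, 9.48 and 207.1 FPKM in deficient 1, 2 and 3. It was at 22.4, 29.9 and 43.5 FPKM in control 1, 2 and 3. The order was that of Prss28, with deficient 3 highest and deficient 1 and 2 below every control library. The means were 74.5 ± 115 and 31.9 ± 10.7 FPKM in the deficient and control libraries (SD, n = 3 each). The difference on the log2 scale was -0.31 ± 1.21 (SE), so the mean level was higher in the deficient libraries while the mean log2 value was lower.

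Deficient 3 held 71.4 times the mean Prss28 level of deficient 1 and 2, and 11.6 times the highest control level. For Prss29 these ratios were 25.4 and 4.76. The mean control level was in turn 5.22 times that of deficient 1 and 2 for Prss28 and 3.92 times for Prss29. The proportion of the pair also differed in deficient 3. Prss29 was 7.65, 6.18 and 2.39 times Prss28 in deficient 1, 2 and 3, against 5.37, 4.07 and 5.82 times in control 1, 2 and 3.

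The longest transcripts of the pair were 76.1% identical over 1074 aligned bases and shared 0 runs of 50 bases. The sources used here do not say how reads that map to several genes were counted.

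SPINK1 is a secreted Kazal-type inhibitor of trypsin, also abundant in the acinar pancreas. Spink1 (chromosome 18, 43728082 to 43737557, minus strand) was at 0.064, 0 and 2.57 FPKM in deficient 1, 2 and 3. It was at 0.320, 0.064 and 0.064 FPKM in control 1, 2 and 3. Its values were whole multiples of 0.0642 FPKM, within 0.0134 of a step. If 1 step is 1 read, that gives 1, 0 and 40 reads in the deficient libraries and 5, 1 and 1 in the control libraries. The annotated transcript of 729 bases and the library size found for other genes instead give about 2, 0 and 69 reads in the deficient libraries and about 9, 2 and 2 in the control libraries, and the 2 estimates were not reconciled. By either, Spink1 lay above 3 reads in deficient 3 and control 1 only. Deficient 3 held 8.02 times the FPKM level of control 1. In deficient 2 a count of 0 allows 3 reads, which are 0.193 FPKM by the step and 0.112 FPKM by the annotated length. Of 7 acinar pancreas markers, Prss2 was at 0 in every library, and their summed level was 3.62 to 5.15 FPKM in the deficient libraries and 2.31 to 3.17 FPKM in the control libraries, with 3.85 FPKM in deficient 3. Most of each sum was the elastase gene Cela1, at 3.29, 4.95 and 3.53 FPKM in deficient 1, 2 and 3 and 2.15, 2.95 and 2.09 FPKM in control 1, 2 and 3. The carboxypeptidase gene Cpa1 was at 0.017, 0.017 and 0.154 FPKM in the deficient libraries and 0.069 to 0.120 FPKM in the control libraries. Cpb1, its relative, was at 0.018, 0.018 and 0.108 FPKM in the deficient libraries and 0.036 to 0.072 FPKM in the control libraries. Cpa1 and Cpb1 were thus low throughout, with deficient 3 the highest library for each. Cela2a went the other way within the deficient group, at 0.265, 0.148 and 0.059 FPKM in deficient 1, 2 and 3. It was at 0 to 0.059 FPKM in the control libraries. Cela3b and Pnlip were at 0 in deficient 3 and at most 0.061 and 0.018 FPKM in any library. The part of these markers in the Spink1 value was not tested.

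WFDC2 is a small secreted protein with the four-disulfide core found in protease inhibitors, made by many ducts and glands. Wfdc2 (chromosome 2, 164562413 to 164568510, plus strand) was at 135.4, 188.0 and 229.3 FPKM in deficient 1, 2 and 3. It was at 184.7, 139.3 and 182.1 FPKM in control 1, 2 and 3. The groups overlapped in part of the range, and deficient 1 and deficient 3 were the ends of it. Deficient 2 and deficient 3 lay above every control library, and deficient 1 lay below every one. The means were 184 ± 47.1 and 169 ± 25.5 FPKM in the deficient and control libraries (SD, n = 3 each), and the difference was 0.10 ± 0.21 (SE). The difference was -0.07 without deficient 3.

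PRAP1 is a secreted proline-rich acidic protein made by epithelia of the intestine and of the pregnant uterus. Prap1 (chromosome 7, 140093395 to 140097200, plus strand) was at 21873, 23305 and 36945 FPKM in deficient 1, 2 and 3. It was at 27078, 26602 and 38000 FPKM in control 1, 2 and 3. The third library of each group was the highest, and the groups overlapped. The means were 27374 ± 8319 and 30560 ± 6448 FPKM in the deficient and control libraries (SD, n = 3 each), and the difference was -0.18 ± 0.26 (SE).

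Prap1 ranked 1 of all genes in each of the 6 libraries. It took 6.08%, 6.53% and 9.92% of summed FPKM in deficient 1, 2 and 3, and 7.22%, 7.14% and 10.1% in control 1, 2 and 3. The next gene was Ctla2a in every library but deficient 3, where it was Guca2b. Prap1 exceeded that gene 3.16, 4.48 and 4.16 times in deficient 1, 2 and 3 and 3.39, 3.60 and 4.08 times in control 1, 2 and 3. The other 7 members together took 0.0405% to 0.142% of summed FPKM in the deficient libraries and 0.0480% to 0.0624% in the control libraries. Fuom overlaps the last 431 bases of Prap1 on the minus strand, and the sources used here do not say if reads were counted by strand. Fuom was at 7.42 to 8.96 FPKM in the deficient libraries and 7.26 to 8.21 FPKM in the control libraries, at most 0.0409% of the Prap1 level.

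**Figure D1:**
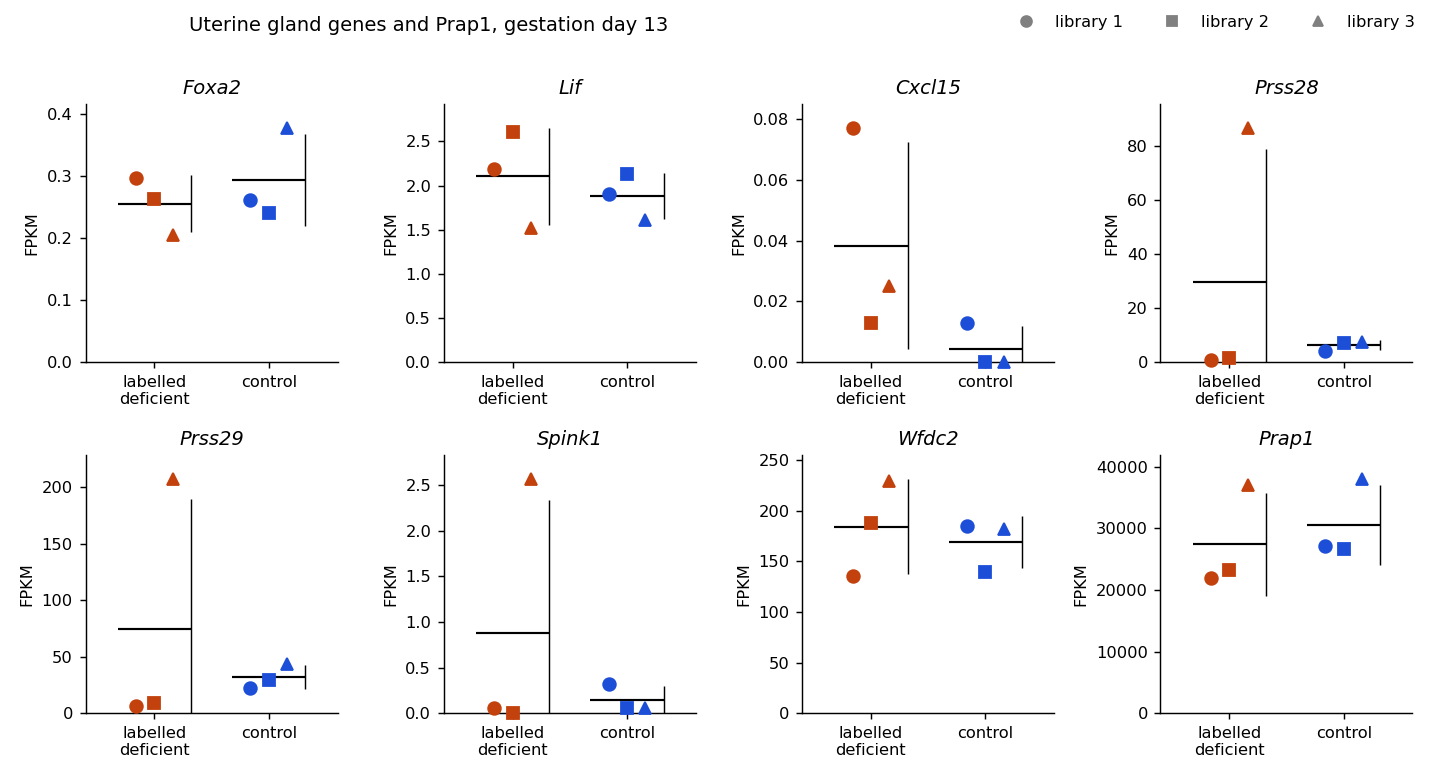
FPKM of each of the 8 genes in each library, with libraries labelled deficient left of control libraries in every panel; symbols give the library number, horizontal lines the group mean and vertical lines 1 SD each way (cut at 0), on a linear axis of its own per gene. Deficient 3 lies far above the other libraries for Prss28, Prss29 and Spink1, and library 3 is the highest of each group for Prap1.

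Ranked by level, the members kept Prap1, Wfdc2 and Prss29 in the first places in every library. In the control libraries Prss28 and then Lif came next. In deficient 1 and deficient 2, Lif stood above Prss28, at 2.19 against 0.890 FPKM and at 2.61 against 1.53 FPKM. In deficient 3, Spink1 at 2.57 FPKM also stood above Lif at 1.52 FPKM, and Prss29 at 207.1 FPKM came near Wfdc2 at 229.3 FPKM. The lowest places went to Foxa2, Spink1 and Cxcl15, whose order among the libraries other than deficient 3 rests on few reads.

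The spread within a group was measured as the SD of log2(FPKM + 1) over its 3 libraries, and its median over all genes tested was 0.104 in the deficient and 0.105 in the control libraries. Prss28, at 3.08 in the deficient libraries, had the largest SD of the 12500 genes tested, and Prss29, at 2.62, ranked 2. In the control libraries their SDs were 0.40 and 0.46, at ranks 576 and 403, so that 95.4% and 96.8% of genes had a smaller one. Prap1 had SDs of 0.41 and 0.29 in the deficient and control libraries, at ranks 695 and 1189. Those of Wfdc2 were 0.38 and 0.23, at ranks 841 and 1899, and those of Lif 0.26 and 0.13, at ranks 1725 and 4727. The highest library exceeded the lowest 97.3-fold for Prss28 and 30.4-fold for Prss29 in the deficient group, against 1.78-fold and 1.94-fold in the control group. For Lif, Wfdc2 and Prap1 it was at most 1.72-fold in the deficient and 1.43-fold in the control group.

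**Figure D2:**
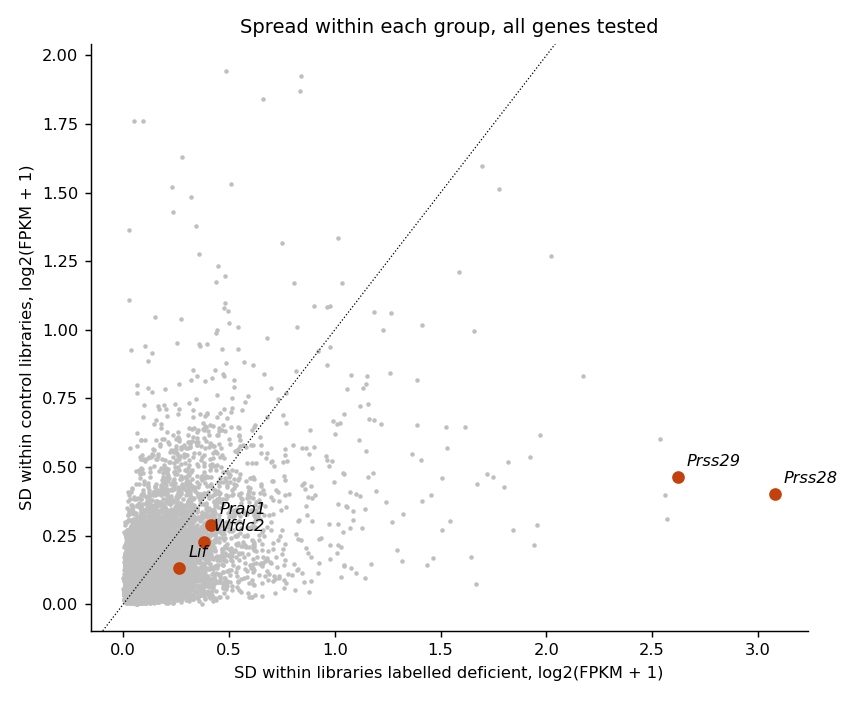
Each point is 1 of the 12500 genes tested, with the SD of log2(FPKM + 1) over the 3 libraries labelled deficient on the horizontal axis and over the 3 control libraries on the vertical axis; the dotted line marks equal SDs. Prss28 and Prss29 lie at the far right, at 3.08 and 2.62, with control SDs of 0.40 and 0.46.

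In the fit over all genes, 417 of 12500 genes (3.34%) passed an adjusted p of 0.05, of which 168 (1.34%) were higher and 249 (1.99%) lower in the deficient libraries. Of the 5 members in the fit, 0 passed, and at an unadjusted p of 0.05 the count was also 0, against 2682 of all genes. The groups of all 8 members overlapped, whereas they did not overlap for 3626 genes tested (29%). The median difference of all genes tested was 0.06. Since the members were chosen with this contrast known, nothing is read from these counts.

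The differences of Prss28 and Prss29 depended on deficient 3. Without it they were -1.71 and -1.81. Without deficient 1 that of Prss29 was 0.55, and without deficient 2 it was 0.34. With the third library of both groups left out, the differences were -1.59 for Prss28 and -1.57 for Prss29. Spink1, which was not tested, went to -0.15 without deficient 3, against 0.45 with all libraries. The difference of Prap1 kept its sign with each library left out, but its size varied, over the range given in the last section. With all libraries it was -0.18 ± 0.26 (SE), smaller than its SE.

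**Figure D3:**
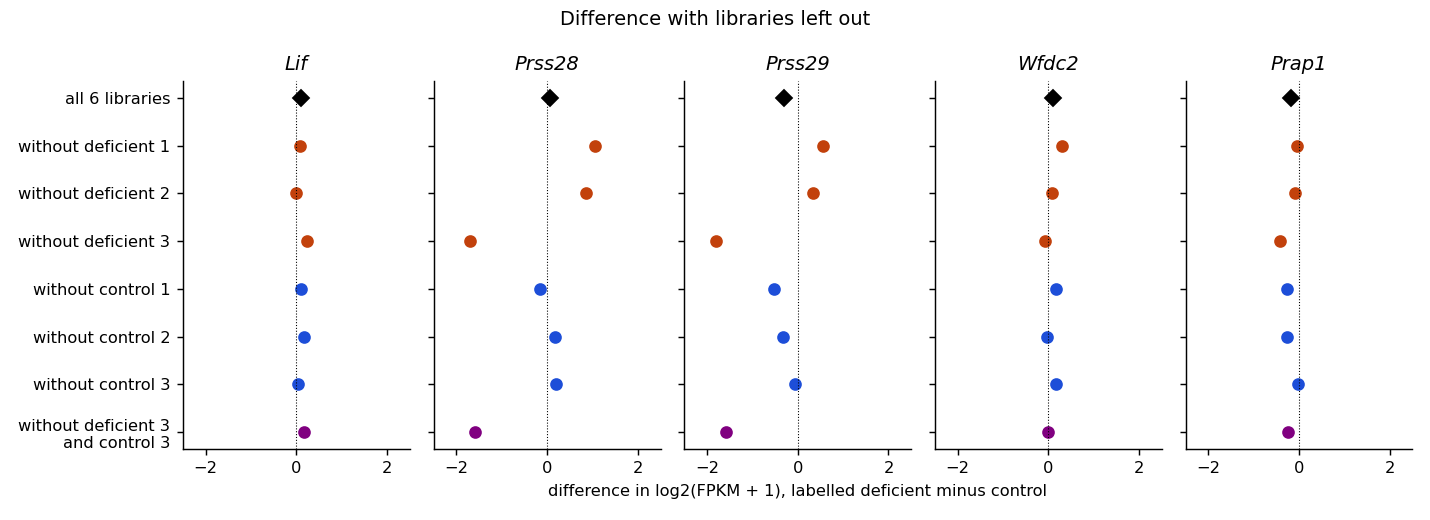
Difference in log2(FPKM + 1), libraries labelled deficient minus control, for members of the set with all 6 libraries, with each library left out in turn and with the third library of both groups left out. Prss28 and Prss29 lie at -1.71 and -1.81 without deficient 3, and with it kept while another library is left out Prss28 lies between -0.17 and 1.06.

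Genes whose deviations from their mean log2 value came closest to those of a member were ranked by the root mean square of the distance over the 6 libraries. The nearest gene to Prss28 was Prss29, at 0.36, and the next was Upp2, a uridine phosphorylase, at 0.88. Prss29 had Prss28 and then Prom2, at 0.66. The nearest to Prap1 were Cyyr1 and Serinc3, at 0.13 each, both higher in the third library of each group. Wfdc2 lay 0.093 from Sorcs2 and 0.094 from Fxyd7. Lif lay 0.037 from Arpc1b, an actin-nucleation subunit, and 116 genes were within 0.5 times its own deviation, so its pattern was common. These distances are descriptions over 6 libraries.

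Prss28 had the pattern of a wider set of genes in deficient 3. Of the 32 genes at least 4-fold higher there than in deficient 1 and 2, 30 also lay above every control library, and 16 had every control library above both deficient 1 and deficient 2. Some of the 16 reached the filter of 1 FPKM only through deficient 3, so these counts depend in part on its high values. Among these 16, the ratio of deficient 3 to the higher of deficient 1 and 2 was 56.4 for Prss28, the highest, and 21.8 for Prss29. Upp2 was at 0.596, 0.396 and 19.2 FPKM in deficient 1, 2 and 3, against 4.45, 2.33 and 0.730 FPKM in control 1, 2 and 3. Hdc, the histidine decarboxylase that makes histamine, was at 8.0, 9.31 and 49.9 FPKM in the deficient libraries, against 40.2, 40.5 and 14.5 FPKM in the control libraries. For both, control 3 was the lowest control library, whereas for Prss28 and Prss29 it was the highest.

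Of the neighbouring protease genes on chromosome 17 that are named here, Prss34, Tpsab1, Tpsb2 and Tpsg1, none had deficient 3 above any control library. Prss34, a mast cell and basophil protease gene before Prss28, was at 0.089, 0.022 and 0.022 FPKM in deficient 1, 2 and 3, against 0.356, 0.268 and 0.246 FPKM in control 1, 2 and 3. Tpsab1, a mast cell tryptase gene beyond Prss29, was at 0 to 0.069 FPKM in the deficient libraries and 0.274 to 0.409 FPKM in the control libraries. Neither reached the filter. Tpsb2, the other mast cell tryptase gene, was at 0.624, 0.676 and 1.07 FPKM in the deficient libraries and 5.12, 6.27 and 5.29 FPKM in the control libraries. It fell by 1.88 ± 0.12 (SE), with a limma adjusted p of 0.0030. Tpsg1, a transmembrane tryptase gene next to it, was at 0.020, 0.060 and 0.139 FPKM in the deficient libraries and 0.139, 0.259 and 0.179 FPKM in the control libraries. Within the deficient group, Tpsb2 and Tpsg1 were highest in deficient 3.

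**Figure D4:**
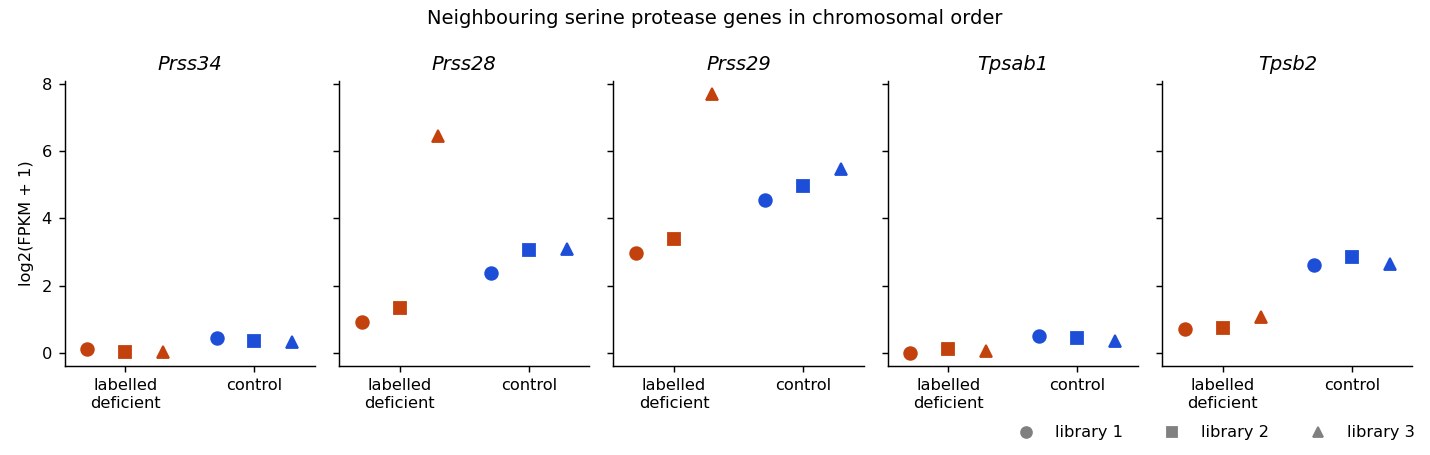
log2(FPKM + 1) of protease genes neighbouring Prss28 and Prss29 on chromosome 17, in chromosomal order, by library, with libraries labelled deficient left of control libraries in each panel. The high value of deficient 3 appears for Prss28 and Prss29, while for Tpsb2 all 3 deficient libraries lie below all 3 control libraries.

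Other genes of gland biology were read from lists drawn up by known role. Among 15 regulators of gland development and function, 10 were tested, with 0 higher and 1 lower, and their median difference was 0.19 against 0.06 over all genes. Rspo1, a secreted agonist of WNT signalling, was at 8.59, 10.5 and 9.61 FPKM in the deficient libraries and 15.4, 16.4 and 19.2 FPKM in the control libraries. It fell by 0.77 ± 0.11 (SE), with a limma adjusted p of 0.020, which became 0.071 without deficient 1, 0.056 without control 1 and 0.077 without control 2. Esr1, the oestrogen receptor gene, was at 31.1, 33.4 and 35.8 FPKM in the deficient libraries and 27.2, 26.8 and 25.9 FPKM in the control libraries, with an adjusted p of 0.074. Lgr5, a marker of immature gland epithelium, was at most 0.052 FPKM in any library.

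Of 18 other secretory products of uterine epithelium, 13 were tested and 0 passed in either direction. The median difference was 0.10, and 9 of the 13 differences were positive, near the share over all genes tested, 8110 of 12500. The complement gene C3 had the smallest p, with 4089, 3883 and 3057 FPKM in deficient 1, 2 and 3. It was at 2189, 2375 and 3008 FPKM in control 1, 2 and 3, with a limma adjusted p of 0.15. Deficient 3 was the lowest library for the lactoferrin gene Ltf, at 29.1 FPKM, with 129 and 201 FPKM in deficient 1 and 2 and 101 to 123 FPKM in the control libraries. The same held for Lcn2, a siderophore-binding lipocalin gene, at 501 FPKM in deficient 3, 1297 and 1863 FPKM in deficient 1 and 2 and 952 to 1281 FPKM in the control libraries. Ovgp1, the oviduct glycoprotein gene, was instead high in deficient 2, at 18.0 FPKM, with 0.957 and 0.740 FPKM in deficient 1 and 3 and 0.482 to 0.990 FPKM in the control libraries. Ltf, Lcn2 and Ovgp1 were chosen after their values were seen. Secretory transcripts of deficient 3 were therefore not all high or all low against the rest of its group.

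The LIF pathway list held 19 receptors, kinases, related cytokines and targets, of which 14 were tested and 0 passed in either direction. Its median difference was 0.15. Osmr, the oncostatin M receptor, had the smallest p, with 17.6, 19.5 and 14.6 FPKM in the deficient libraries and 11.3, 12.5 and 13.4 FPKM in the control libraries and an adjusted p of 0.11. The ligand-binding receptor Lifr was at 31.6, 25.5 and 30.4 FPKM in the deficient libraries and 26.7, 28.5 and 38.9 FPKM in the control libraries. Ihh, an epithelial target of PGR in early pregnancy, was at most 0.125 FPKM in any library.

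Of 17 other serine protease genes, 8 were tested, with 0 higher and 1, Tpsb2, lower, and a median difference of 0.12. Klk1, tissue kallikrein, was at 2389, 1544 and 1681 FPKM in the deficient libraries and 1234, 1038 and 791 FPKM in the control libraries, with an adjusted p of 0.10. Prss22, chosen after its values were seen, was at 3.16, 4.03 and 0.041 FPKM in deficient 1, 2 and 3, with 2.79 to 5.07 FPKM in the control libraries. Its low value in deficient 3 is the opposite of Prss28 and Prss29. Of 14 protease inhibitor genes, 7 were tested and 0 passed, with a median difference of 0.02, which was -0.04 under median-of-ratios scaling and -0.01 under quantile normalization.

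Of 8 genes listed as ELR chemokines and their receptors, 3 were tested, Pf4, Cxcl5 and Cxcl1, and 0 passed. Their median difference was -0.99, with 0 of the 3 at an unadjusted p of 0.05. Pf4, a CXC chemokine gene whose product lacks the ELR motif, was at 19.6, 33.7 and 18.5 FPKM in deficient 1, 2 and 3. It was at 40.3, 50.5 and 23.9 FPKM in control 1, 2 and 3. Cxcl5 was at 2.97, 3.00 and 0.458 FPKM in deficient 1, 2 and 3, against 17.7, 16.9 and 0.935 FPKM in control 1, 2 and 3. Cxcl1 was at 5.84, 4.08 and 0.457 FPKM in the deficient libraries and 12.3, 8.28 and 2.20 FPKM in the control libraries. For Cxcl5 and Cxcl1, both neutrophil-attracting chemokines, the third library was the lowest of each group. Cxcl15, at 6, 1 and 2 reads against 1, 0 and 0, is too low to be set beside them.

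**Figure D5:**
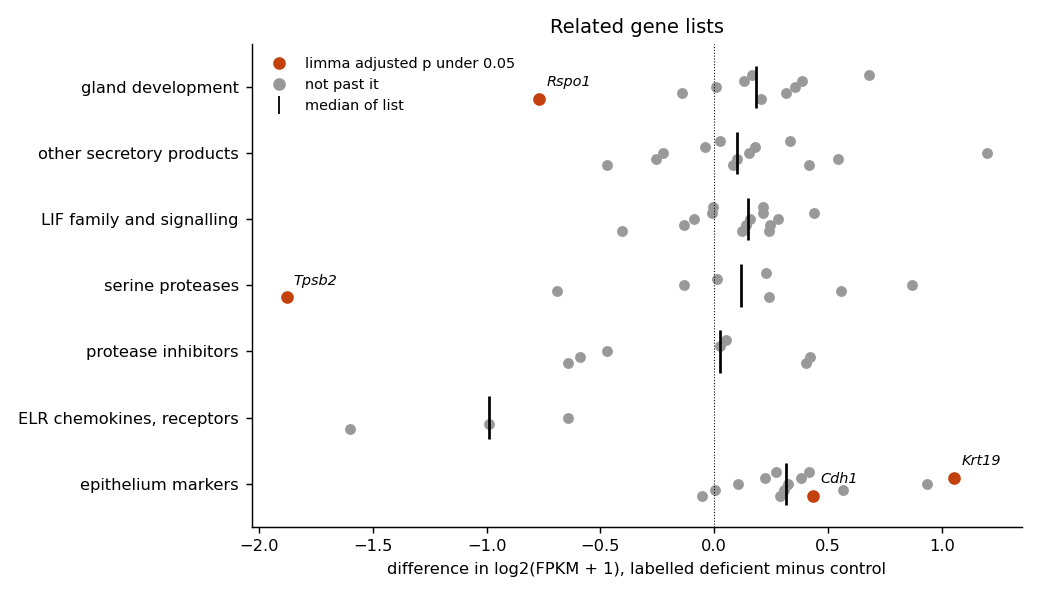
Difference in log2(FPKM + 1), libraries labelled deficient minus control, for each tested gene of the related lists, with the median of each list as a vertical tick; genes past a limma adjusted p of 0.05 are coloured. Rspo1 and Tpsb2 lie below 0 past the threshold, and the epithelial markers lie mostly above 0.

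Levels of some cell type markers differed between the groups, while those of others overlapped. All 8 smooth muscle markers fell (4 to 8 with 1 library left out, fewest without control 1 or control 2), with a summed level of 3229 to 3807 FPKM in the deficient libraries and 8011 to 9794 FPKM in the control libraries. Of 14 epithelial markers, 13 had a positive difference, against 8110 of all 12500 genes tested. Among the 14, 2 (Krt19 and Cdh1) rose and 0 fell, with a median difference of 0.32. The summed level of the 14 was 1050 to 1480 FPKM in the deficient libraries and 885 to 1026 FPKM in the control libraries. The count of epithelial markers that rose was 5 without deficient 3, 1 without control 1 and 0 without any of the other 4 libraries. In bulk tissue, fewer cells of a type and less RNA per cell cannot be told apart. The summed level of 5 decidual markers was 51.6 to 87.4 FPKM in the deficient libraries and 148 to 427 FPKM in the control libraries, with 4 tested and 0 past the threshold. Most of that gap lay in Prl8a2, a decidual prolactin-family gene, at 0.664 to 26.5 FPKM in the deficient and 60.4 to 355 FPKM in the control libraries. Cryab was also lower, at 36.7 to 49.3 FPKM in the deficient and 53.2 to 72.6 FPKM in the control libraries. So was Hand2, at 8.89 to 12.6 FPKM in the deficient and 13.8 to 15.6 FPKM in the control libraries. Bmp2 went the other way, at 1.599 to 2.08 FPKM in the deficient and 1.16 to 1.44 FPKM in the control libraries. The median difference of the decidual list was -0.49. The summed level of 8 trophoblast markers, with Gcm1 at 0 everywhere, was 0.449 to 1.45 FPKM in the deficient and 1.13 to 2.40 FPKM in the control libraries. That of 5 endothelial markers was 94.96 to 135 FPKM in the deficient and 107 to 114 FPKM in the control libraries, and that of 4 leukocyte markers 164 to 178 and 157 to 178 FPKM in the deficient and control libraries. That of 6 yolk sac markers was 7.40, 7.49 and 16.6 FPKM in deficient 1, 2 and 3 and 3.32 to 4.45 FPKM in the control libraries, with Apoa4 at 0 everywhere. Amn, the amnionless gene, made up 7.27, 7.29 and 16.3 FPKM of the yolk sac sums in deficient 1, 2 and 3 and 3.05 to 4.08 FPKM in the control libraries. The defining marker Afp was at 0.078 to 0.234 FPKM in the deficient and 0.052 to 0.208 FPKM in the control libraries, and Apoa1 at 0 to 0.027 FPKM in the deficient and 0.137 to 0.357 FPKM in the control libraries. The summed level of 4 mesothelial markers was 12.0 FPKM in deficient 3, 25.7 and 28.6 FPKM in deficient 1 and 2 and 13.3 to 26.4 FPKM in the control libraries. The part of cell type markers in the values of the members was not tested.

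Set against the epithelial markers of the same library, as log2(FPKM + 1) of the member minus the mean of the 14 markers, the members are shifted by the difference of 0.37 in the marker mean itself. Lif, Cxcl15, Prss28 and Wfdc2, whose own differences were 0.10, 0.05, 0.07 and 0.10, turn negative through that shift. Prap1 lay 8.68, 8.74 and 9.70 above the marker mean in deficient 1, 2 and 3, and 9.37, 9.49 and 9.93 above it in control 1, 2 and 3. The mean difference was -0.55 for Prap1, with deficient 3 inside the control range and deficient 1 and 2 below it. It was -0.68 for Prss29, -0.31 for Prss28, -0.27 for Wfdc2, -0.28 for Lif, -0.42 for Foxa2, -0.33 for Cxcl15 and 0.07 for Spink1. Wfdc2 lay 1.36, 1.80 and 2.38 above the marker mean in deficient 1, 2 and 3 and 2.19, 1.92 and 2.23 above it in control 1, 2 and 3. Prap1 was 162, 124 and 161 times Wfdc2 in the deficient libraries and 147, 191 and 209 times in the control libraries.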

How the data were processed

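The authors deposited 1 table of FPKM values, rounded to 3 decimals, with 1 column per library. Each column was assigned to its sample by the name in the labels, and 0 columns had no match. RNA was extracted with TRIzol and sequenced from standard Illumina libraries, per the labels' protocols. The submitters' processing notes name STAR 2.7.0f, cutadapt 2.7, DESeq2 1.24.0 and build mm10. The sources used here do not give the counter, annotation, strand setting or FPKM formula. FPKM of all genes falls where a few transcripts take more reads.

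Differences were fitted with limma 3.58.1 in R 4.3.3 (lmFit, eBayes with trend) on log2(FPKM + 1) for the 12500 genes averaging 1 FPKM or more, with 3 libraries per group and no covariate. Benjamini-Hochberg adjustment ran over all genes tested, at a threshold of 0.05. The log2(FPKM + 1) scale understates changes of low genes. From the steps of low values of 184 genes with 1 annotated transcript, the library size behind the table was about 36700000 reads (quartiles 35600000 and 37100000), which may be 1 common size. At it, 3 reads on 1 kb are 0.0817 FPKM. Positions came from GENCODE M21 (GRCm38) and promoter windows from RefSeq (GRCm38.p6), where 7 of 8 members were matched and Spink1 was not. Sequences were aligned with Biopython 1.88. The fitting code was first checked on simulated data.

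The members and the gene lists were chosen with earlier results of these data known. The naming rule covered the members, Pgr, the 2 nearest genes of each tested member and called genes of the pathway lists. It also covered up to 4 tested genes of smallest p in each pathway list and the 4 highest genes of each marker list. Not all genes under the rule are named in the text. Other named genes (Lifr, Ihh, Lgr5, Krt19, Cdh1, Gcm1, Apoa4, Prss2, Cela3b, Pnlip, Hdc, Ltf, Lcn2, Ovgp1, Prss22, the abundant genes beside Prap1 and the neighbours of Prss28 and Prap1) were picked once their values were known. The alternatives were pseudocounts of 0.1 and 0.5 FPKM, no filter, a minimum mean of 5 FPKM, 4 other scalings, limma without the trend, the replicate block, and leaving out libraries.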

Additional observations from a re-analysis of the deposited data

How the results depend on the processing

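Over all genes, the 417 calls (168 higher, 249 lower) became 143 (31 higher, 112 lower) with the replicate number as a block, 99 to 525 with 1 library left out (99 without control 1, 103 without control 2, 131 without deficient 1, 188 without deficient 2) and 1275 when library 3 of both groups was left out. Deviations of same-numbered libraries from their group means correlated at -0.14, 0.08 and -0.13. Those of differently numbered libraries correlated at -0.13 to 0.20. With 3 libraries per group, these values cannot tell whether the replicate numbers pair the libraries. The block changed the call of Rspo1 (adjusted p = 0.055) and of Cxcl1 (adjusted p = 0.037) among the genes named under the rule, and of 0 members. Higher calls were 218 of 429 after rescaling to a common sum, 239 of 476 after rescaling without Prap1, 123 of 514 under median-of-ratios scaling and 131 of 469 under quantile normalization. Members called numbered 0 to 2 with 1 library left out, the 2 being Prss28 and Prss29 without deficient 3, where 525 of 12473 genes passed, and 2 when library 3 of both groups was left out, where 1275 of 12511 genes passed. The members were chosen with these values known, so nothing is read from these counts. Called genes of the related lists and epithelial markers numbered 4, against 7 under quantile normalization, 1 to 8 with 1 library left out and 16 without library 3 of both groups. With 1 library left out, the difference ran from -0.071 to 0.0046 for Foxa2, -0.020 to 0.24 for Lif, -1.71 to 1.06 for Prss28, -1.81 to 0.55 for Prss29, -0.15 to 0.77 for Spink1, -0.069 to 0.31 for Wfdc2, -0.42 to -0.01 for Prap1 and 0.02 to 0.07 for Cxcl15. Without library 3 of both groups it was 0.034 for Foxa2, -1.59 for Prss28, -1.57 for Prss29, -0.20 for Spink1 and -0.0079 for Wfdc2. Under a pseudocount of 0.1 it was -0.14 for Foxa2, 0.38 for Cxcl15 and -0.26 for Prss28, and under 0.5 it was 0.092 for Cxcl15 and -0.082 for Prss28. After rescaling it was 0.13 for Cxcl15 and -0.095 for Prss28, and after rescaling without Prap1 0.13 and -0.11. Pgr had a negative difference under median-of-ratios scaling (-0.019) and quantile normalization (-0.0054) and ran from -0.078 to 0.23 with 1 library left out. Prap1, the top gene of every library, is 0 under quantile normalization by construction. Apart from the effect of fewer libraries in a fit, the causes of these changes were not tested. Depth limits Foxa2, Cxcl15 and Spink1, which rest on few reads in most libraries.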
